A study of Brassica juncea with 2 samples.

Results

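The aquaporins of B. juncea var. CS52, an Indian mustard that tolerates salt, were taken as all unigenes whose annotation in the deposited table contains "aquaporin", "intrinsic protein" or "NOD26-like" in any case. These words found 28 of 47513 unigenes. They were measured by RNA-seq in 2 libraries, each from pooled tissue of about 10 hydroponic seedlings that were 2 weeks old by the labels. The salinity stress library (SS) came from seedlings kept in 200 mM salt for 24 h, and the control library (CTRL) from seedlings of the same variety kept in water and collected at the same time. The labels call the CTRL seedlings wild type and name no transgene or mutation. With 1 library per condition, differences between SS and CTRL could not be checked against replicates, and no test across samples was made. All intervals are 95% intervals and cover counting error only, and PCR duplicates are not independent molecules. The labels name no organ, and in such bulk samples fewer cells of a type and less RNA per cell cannot be told apart.

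Aquaporins are membrane channels that let water, and in some members small solutes such as urea, ammonia, boric acid or hydrogen peroxide, pass down their gradients. In plants they are grouped by sequence and place in the cell. Plasma membrane intrinsic proteins (PIPs) lie at the cell surface, tonoplast intrinsic proteins (TIPs) in the membrane of the vacuole, NOD26-like intrinsic proteins (NIPs) carry metalloids and small solutes in several known cases, and small and basic intrinsic proteins (SIPs) are found in the endoplasmic reticulum in Arabidopsis. PIPs and TIPs set much of the water permeability of roots and leaves, which is why they are often examined under salt and drought.

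The 28 unigenes carry 17 annotations and 21 B. rapa gene matches. They divide into 17 PIPs, 4 TIPs, 3 NIPs, 2 SIPs and 2 unigenes annotated only as aquaporin-like superfamily protein. All 28 belong to the series of unigenes matched to B. rapa (identifier R). Of 20137 non-rapa unigenes, 1851 have an annotation in the table, so a search by words reaches few of them. The unigenes are 332 to 1244 bp long, with a median of 1070 bp, and 6 are shorter than 600 bp. Identifiers are given below without their shared beginning Bju_CS52. Arabidopsis names are given where the annotation uses an older name. No sequence of these unigenes was used here.

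The pool of aquaporin transcripts was smaller in SS than in CTRL. Most of the highest members were lower in SS, and 2 weakly expressed TIPs were at least 2-fold higher. The 28 unigenes took 412168 of 73982305 reads on unigenes in SS, a share of 0.557% (exact interval 0.555 to 0.559), against 540062 of 77863615 in CTRL, a share of 0.694% (0.692 to 0.695). Their RPKM (reads normalized by unigene length and by the total of high-quality reads) summed to 4062 in SS and 5038 in CTRL, a ratio of 0.806 (0.803 to 0.810). A minimum of 1 RPKM in either library kept 26 members, of which 2 were at least 2-fold higher in SS on log2 of RPKM plus 0.1, beside 1.91% of all 43250 unigenes kept. Past 2-fold downward were 0, beside 4.21% of all. By the counting interval of the RPKM ratio, 5 of the 26 lay above 1 and 17 below 1, beside 20.7% and 31.8% of all unigenes. With library scaling by size factors these counts were 7 and 15, beside 26.6% and 25.9%. The median log2 ratio was -0.17 over the 26 aquaporins, -0.06 over all unigenes and -0.10 over the rapa series, and scaling by size factors moves all ratios up by 0.07. Deep counts give narrow intervals, so the interval calls depend on level: among 733 unigenes that averaged 100 RPKM or more, 54.7% lay above 1 and 37.4% below. Of the 10 aquaporins at that level, 1 lay above and 8 below, both with scaling by high-quality reads.

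**Figure D1:**
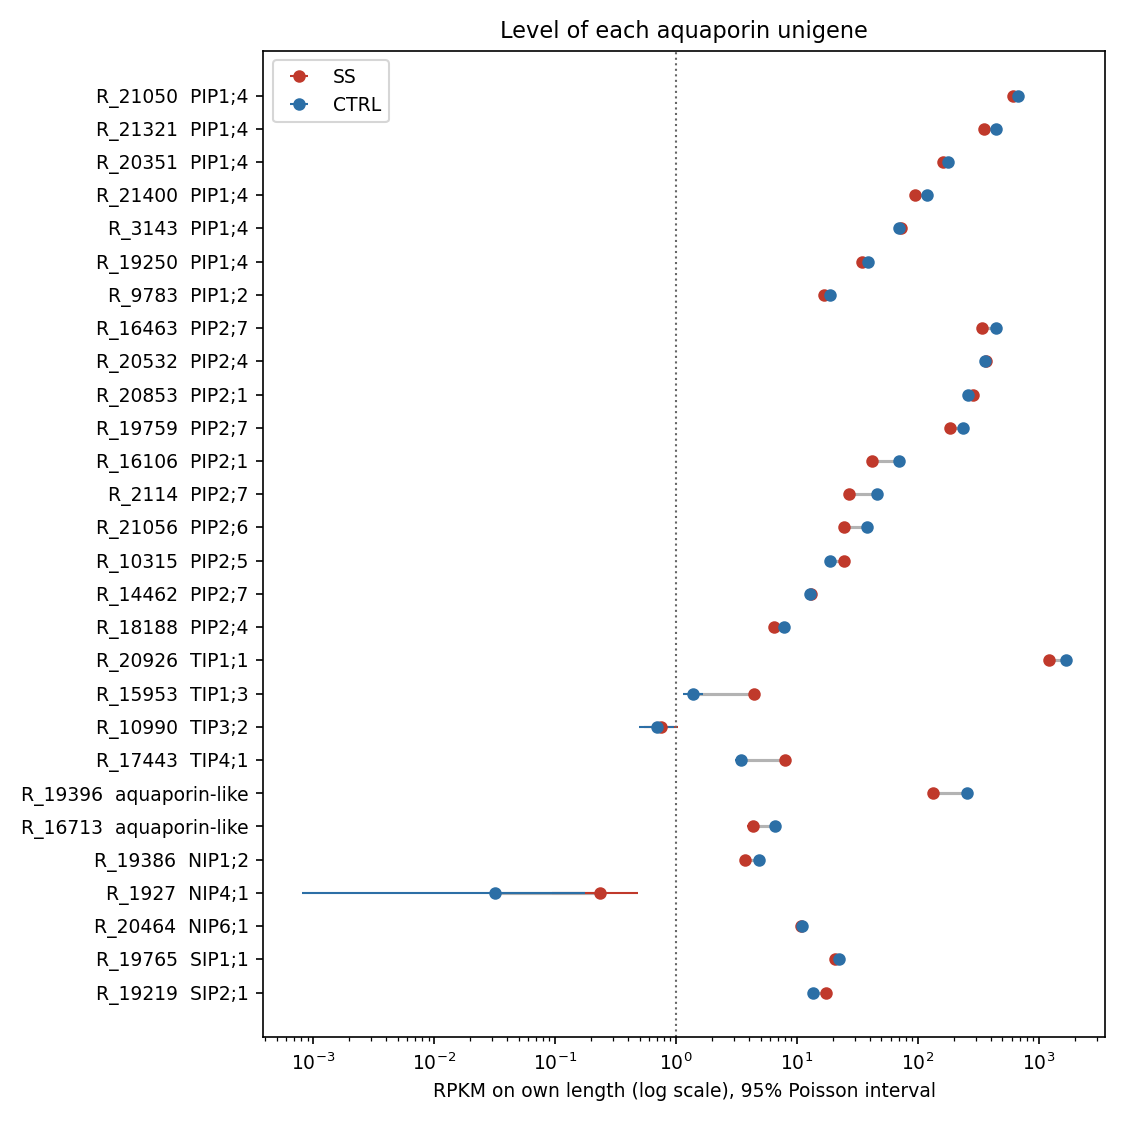
RPKM on each unigene's own length (log scale) in SS (red) and CTRL (blue) for all 28 aquaporin unigenes, with exact 95% Poisson intervals, grouped as PIP, TIP, aquaporin-like, NIP and SIP. The highest member, R_20926 (TIP1;1), had 1209.5 RPKM in SS and 1685 in CTRL, and the lowest, R_1927 (NIP4;1), had 0.235 and 0.0318; the dotted line marks the minimum of 1 RPKM.

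The summed level of the unigenes annotated as TIPs rests on a single unigene. Unigenes matched to TIPs only by the study's other annotation, R_19396, NR_18204 and NR_7209, are given further below. R_20926, annotated gamma tonoplast intrinsic protein (TIP1;1 in Arabidopsis, a major water channel of the vacuole), had 130481 reads and 1209.5 RPKM in SS, against 191971 reads and 1685 RPKM in CTRL. It was the highest aquaporin in both libraries and ranked 57 in SS and 40 in CTRL among all unigenes. Its ratio was 0.718 (0.713 to 0.723), a level 28.2% lower in SS. Among the 733 unigenes that averaged 100 RPKM or more, 6.0% had a log2 ratio as low or lower. It supplied 29.8% of the summed aquaporin RPKM in SS and 33.4% in CTRL. Without it the family's summed ratio was 0.851, still below 1.

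Within the word search, the other highly expressed vacuolar candidate showed the lowest ratio of the family. R_19396, annotated aquaporin-like superfamily protein, had 12998 reads and 134 RPKM in SS, against 26199 reads and 255 RPKM in CTRL. The study's Arabidopsis match for it is delta tonoplast intrinsic protein, a vacuolar channel for water and ammonia in Arabidopsis. Its ratio was 0.524 (0.513 to 0.535) and its log2 ratio -0.93, just outside the 2-fold threshold, and 2.05% of the 733 high unigenes were as low or lower. R_16713, the other unigene with only this annotation, had 4.30 RPKM in SS and 6.57 in CTRL, a ratio of 0.654 (0.570 to 0.749). Both were thus lower in SS, at levels far apart.

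Against these, the 2 unigenes past 2-fold were TIPs of low level. R_15953, annotated tonoplast intrinsic protein 1;3, a pollen channel for water and urea in Arabidopsis, had 340 reads and 4.46 RPKM in SS, against 111 reads and 1.38 RPKM in CTRL. Its ratio was 3.24 (2.60 to 4.05) and its log2 ratio 1.62, and it stood at rank 17361 in SS and 37105 in CTRL. R_17443, annotated tonoplast intrinsic protein 4;1, expressed mainly in roots in Arabidopsis, had 681 reads and 8.03 RPKM in SS, against 311 reads and 3.47 RPKM in CTRL. Its ratio was 2.31 (2.02 to 2.65) and its log2 ratio 1.19, the value just inside the threshold. Together they held well under 1% of the summed aquaporin RPKM in either library, with 0.110% and 0.198% in SS and 0.0273% and 0.0689% in CTRL. R_10990, annotated beta-tonoplast intrinsic protein (TIP3;2, a channel of seed storage vacuoles), had 40 reads in SS and 39 in CTRL. Its 0.757 RPKM in SS and 0.698 in CTRL put it just under the minimum of 1 RPKM, and its ratio of 1.08 had an interval from 0.679 to 1.73. The 4 TIPs summed to 1223 RPKM in SS and 1690 in CTRL, a ratio of 0.723 (0.718 to 0.729), although the median log2 ratio of the 3 that passed the minimum was 1.19. Sum and median point in opposite ways because the median counts each unigene once. With R_19396 added by its Arabidopsis match, the summed ratio was 0.697.

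**Figure D2:**
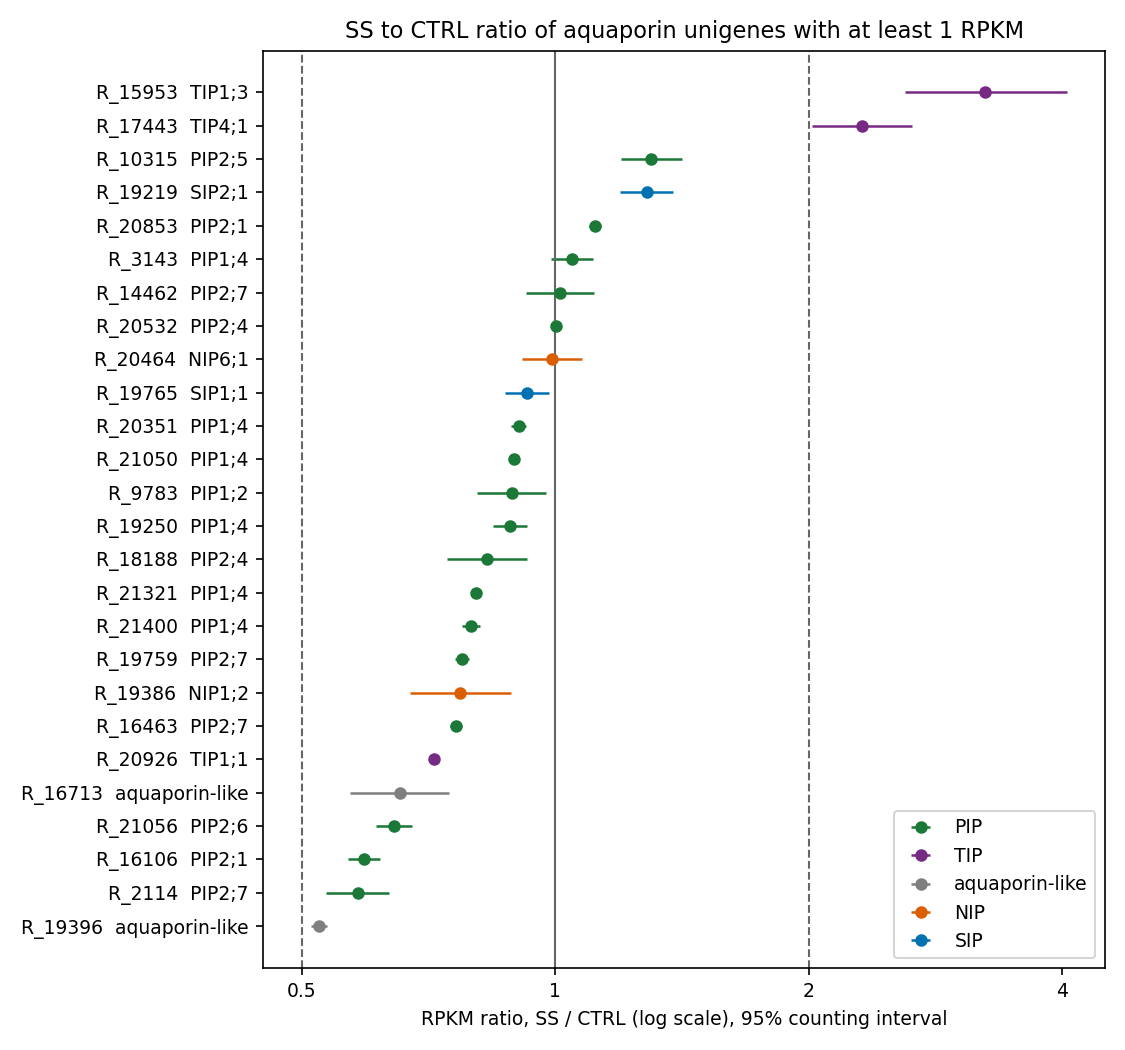
RPKM ratio of SS to CTRL (log scale) with its exact 95% counting interval for the 26 aquaporins that reached the 1 RPKM minimum, ordered by ratio and coloured by subfamily; the solid line marks 1 and the dashed lines 2-fold. R_15953 (3.24) and R_17443 (2.31) stand to the right of the 2-fold line, 0 members stand to the left of the lower one, and R_19396 (0.524) comes closest to it.

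Unigenes with root, shoot or flower words in their annotation were read beside these unigenes. The green shoot list (light-harvesting and chlorophyll-binding proteins) had 18 unigenes past the minimum. Of these, 0 passed 2-fold upward and 3 downward, beside 1.91% and 4.21% of all unigenes. Its summed level was 50980 RPKM in SS and 64635 in CTRL, a ratio of 0.789, next to the 0.806 of the aquaporins. R_20128 and R_9508 weigh most in this sum, with 21396 and 7513 RPKM in SS against 25598 and 12780 in CTRL. By the interval 4 of the 18 lay above 1 and 13 below, beside 20.7% and 31.8% of all unigenes. The median log2 ratio of the list was -0.27. The root list had 4 of 5 matched unigenes past the minimum (root hair specific 10 and expansin A18), with 7.83 RPKM in SS and 8.42 in CTRL summed and 0 past 2-fold. For Casparian strip proteins, expansin A7 and COBRA-like protein 9 no annotation matched, so this list is thin. The flower and pollen list had 34 of 35, with 542 RPKM in SS and 628 in CTRL summed. Its highest unigene, R_22782, had 136.5 RPKM in SS and 145.0 in CTRL. It is annotated pollen Ole e 1 allergen and extensin family, as are the other high ones. These words do not show that flower or pollen tissue was present, which was not tested. Past 2-fold upward there were 4 AGAMOUS-like unigenes, and past 2-fold downward were AGAMOUS-like 18 and 2 pollen Ole e 1 allergen family unigenes. The shares over all unigenes are the same 1.91% and 4.21%. The part of these lists in the aquaporin differences was not tested.

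PIP1 channels, which in many plants reach the plasma membrane in complexes with PIP2 channels, were slightly lower in SS. The 7 PIP1 unigenes summed to 1339 RPKM in SS and 1540.4 in CTRL, a ratio of 0.869 (0.863 to 0.876). Of these, 6 had an interval below 1, beside 31.8% of all unigenes, and 1 included 1. Their log2 ratios ran from -0.33 to 0.07. The highest was R_21050, annotated plasma membrane intrinsic protein 1;4, with 607 RPKM in SS and 678 in CTRL, a ratio of 0.895 (0.885 to 0.904). It supplied 14.9% of the summed aquaporin RPKM in SS and 13.5% in CTRL.

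R_21050 shares its B. rapa match Bra019307 with 4 other unigenes. Unigenes that share a match are called copies here. The paper describes B. juncea as holding the genomes of B. rapa and B. nigra. Whether copies are separate genes, forms from both genomes or fragments was not tested. R_21321 had 353 RPKM in SS and 438 in CTRL (ratio 0.805, interval 0.794 to 0.816). R_20351 had 160.3 RPKM in SS and 177 in CTRL (0.905, 0.887 to 0.924). R_21400 had 95.2 RPKM in SS and 119.7 in CTRL (0.795, 0.775 to 0.815). These long copies, between 1153 and 1244 bp, were all lower in SS. The short copy R_3143, of 354 bp, had 72.8 RPKM in SS and 69.5 in CTRL, and its ratio of 1.05 had an interval that included 1 (0.989 to 1.11). The 5 summed to 1288 RPKM in SS and 1483 in CTRL, a ratio of 0.868. How the mapping divided reads among unigenes that share a match was not tested, so the values of single copies are uncertain. R_19250, with the same annotation and another B. rapa match, had 34.3 RPKM in SS and 38.8 in CTRL (0.884, 0.844 to 0.926). R_9783, annotated plasma membrane intrinsic protein 1B (PIP1;2), had 16.8 RPKM in SS and 18.9 in CTRL (0.888, 0.808 to 0.975), and its log2 ratio of -0.17 became 0.041 when the running trend over unigene number was removed.

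PIP2 channels, which have high water permeability of their own, went both ways. The 10 PIP2 unigenes summed to 1309 RPKM in SS and 1494 in CTRL, a ratio of 0.876 (0.870 to 0.883). By the interval, 2 were above 1 and 6 below, beside 20.7% and 31.8% of all unigenes, and 2 included 1. Their log2 ratios ran from -0.78 to 0.38, a wider range than that of PIP1. R_20532 and R_19759 have a PIP1 match in Arabidopsis by the study, against their PIP2 annotation. Moving both to PIP1 gives summed ratios of 0.881 for PIP1 and 0.852 for PIP2, so both stay below 1 and their order turns round.

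Unigenes annotated plasma membrane intrinsic protein 3 (PIP2;7) were lower by the interval in 3 of 4 cases, beside 31.8% of all unigenes. R_16463, whose Arabidopsis match is PIP2;8, had 338 RPKM in SS and 444 in CTRL, a ratio of 0.762 (0.75 to 0.775). R_19759 had 183 RPKM in SS and 237 in CTRL (0.775, 0.760 to 0.790). R_2114, a fragment of 335 bp, had 804 reads and 26.7 RPKM in SS, against 1457 reads and 45.9 RPKM in CTRL. Its ratio of 0.583 (0.534 to 0.636) was the lowest of all PIPs. With the running trend over unigene number removed, its log2 ratio of -0.78 became -0.49, above the -0.71 of R_16106. R_16463, R_19759 and R_2114 share the match Bra011585 and summed to 548 RPKM in SS and 726 in CTRL, a ratio of 0.755. R_14462, matched to Bra017697, had 13.0 RPKM in SS and 12.8 in CTRL, a ratio of 1.01 with an interval that included 1 (0.924 to 1.11).

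The 2 copies of plasma membrane intrinsic protein 2A (PIP2;1, a water channel whose gating by phosphorylation is well described in Arabidopsis) stood on opposite sides of 1. R_20853, of 1194 bp, had 30823 reads and 288 RPKM in SS, against 29195 reads and 258 RPKM in CTRL, a ratio of 1.12 (1.10 to 1.13). With scaling by high-quality reads, it was the single aquaporin with a mean of at least 100 RPKM whose interval lay above 1. Of the high unigenes, 64.7% had a ratio as low or lower. R_16106, of 859 bp, had 3209 reads and 41.6 RPKM in SS, against 5711 reads and 70.1 RPKM in CTRL, a ratio of 0.594 (0.568 to 0.620). The pair shares the match Bra006997, and its sum was nearly the same, at 329 RPKM in SS and 328 in CTRL. How the mapping divided reads between the pair was not tested, so the opposite ratios are uncertain.

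Among the remaining PIP2 unigenes, R_20532, annotated plasma membrane intrinsic protein 2;4, had 363 RPKM in SS and 362 in CTRL. Its ratio of 1.003 (0.989 to 1.02) was the one closest to 1 among the 10 highest aquaporins. R_18188, with the same annotation, had 6.44 RPKM in SS and 7.76 in CTRL (0.830, 0.743 to 0.927). R_21056, annotated 2E (PIP2;6), had 24.5 RPKM in SS and 38.0 in CTRL, a ratio of 0.644 (0.613 to 0.676). R_10315, annotated 2;5, had 24.6 RPKM in SS and 18.9 in CTRL. Its ratio of 1.30 (1.2 to 1.42) was the highest of all PIPs.

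**Figure D3:**
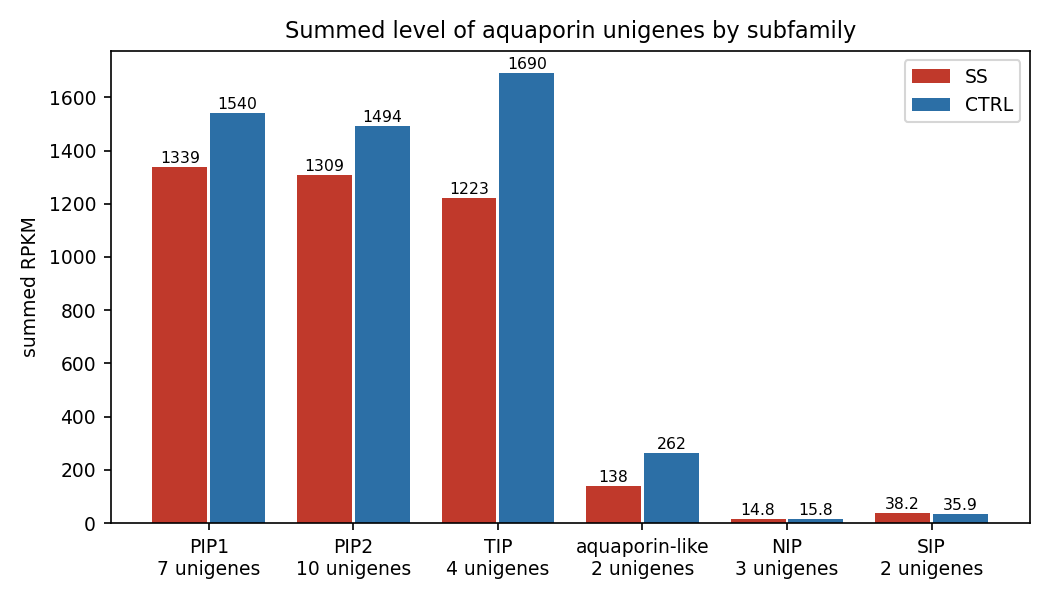
Summed RPKM in SS (red, left) and CTRL (blue, right) by aquaporin subfamily; bars start at 0, each is 1 library, and the number above a bar is its sum. PIP1 (1339 in SS, 1540.4 in CTRL), PIP2 (1309 and 1494) and TIP (1223 and 1690) were lower in SS, and SIP (38.2 and 35.9) was slightly higher.

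NIPs and SIPs were expressed below the main PIPs and TIPs. With scaling by high-quality reads, 1 of the 2 NIPs past the minimum and both SIPs had an interval that excluded 1. Over all unigenes 20.7% had an interval above 1 and 31.8% below. R_20464, annotated NOD26-like intrinsic protein 6;1, a boric acid channel of nodes in Arabidopsis, had 10.9 RPKM in SS and 11.0 in CTRL, a ratio of 0.992 (0.914 to 1.08). R_19386, annotated 1;2, had 3.74 RPKM in SS and 4.85 in CTRL (0.771, 0.672 to 0.885). R_1927, annotated 4;1 and known from pollen in Arabidopsis, had 7 reads in SS and 1 in CTRL on 332 bp. Its levels of 0.235 RPKM in SS and 0.0318 in CTRL were under the minimum, and the interval of its ratio of 7.39 (0.95 to 333) leaves the direction undetermined. The 3 NIPs summed to 14.8 RPKM in SS and 15.8 in CTRL.

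The SIPs differed from each other. R_19219, annotated small and basic intrinsic protein 2;1, had 1681 reads and 17.5 RPKM in SS, against 1383 reads and 13.6 RPKM in CTRL, a ratio of 1.28 (1.19 to 1.38). R_19765, annotated 1A (SIP1;1, an intracellular water channel in Arabidopsis), had 20.6 RPKM in SS and 22.3 in CTRL, a ratio of 0.927 (0.873 to 0.983). The sum was 38.2 RPKM in SS and 35.9 in CTRL, a ratio of 1.06 (1.02 to 1.11).

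The order of levels changed little within the family. Over the 28 unigenes, which are not independent replicates and share both libraries, the Spearman correlation of SS with CTRL RPKM was 0.985. The 5 highest members held 70.7% of the summed RPKM in SS and 71.6% in CTRL. At least 100 RPKM was reached by 9 members in SS and 10 in CTRL, the difference being R_21400. A mean between 10 and 100 RPKM was found for 11 members and a mean under 10 for 7.

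**Figure D4:**
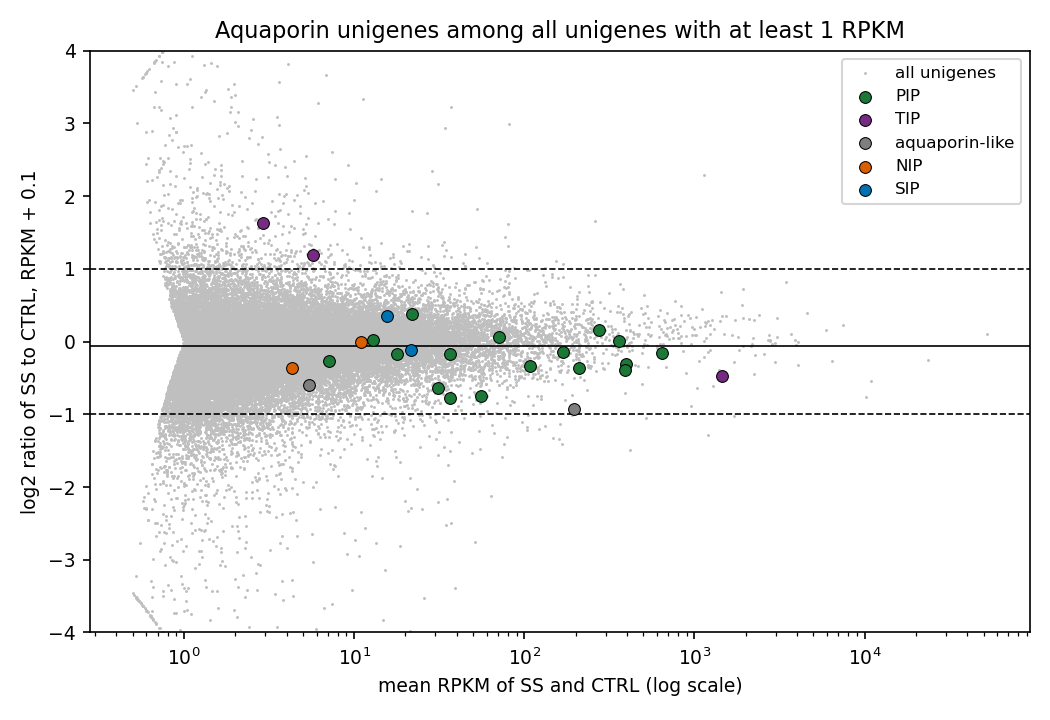
Log2 ratio of SS to CTRL (RPKM plus 0.1) against the mean RPKM of both libraries (log scale) for the 43250 unigenes past the 1 RPKM minimum (grey) and the 26 aquaporins (coloured by subfamily). The solid line is the median of all unigenes (-0.06), the dashed lines mark 2-fold, and 246 unigenes beyond 4 on the log2 scale are not drawn; R_19396 and R_20926 lie in the lower part of the cloud at their levels, with log2 ratios of -0.93 and -0.48, and both unigenes past 2-fold lie in its upper part.

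Proteins that move or control aquaporins in other plants were read from the same table. In Arabidopsis, TSPO binds PIP2;7 and takes it to degradation, and RING membrane-anchor ligases and syntaxins act on the traffic of PIPs. Some 14-3-3 proteins and some SNF1-related protein kinases 2 act on PIP2;1 there. Of 2 TSPO unigenes, R_15123 was at least 2-fold lower, with 2.66 RPKM in SS and 5.89 in CTRL, a ratio of 0.451 (0.379 to 0.536). R_13341 had 0.907 RPKM in SS and 1.07 in CTRL. Over all unigenes 4.21% were at least 2-fold lower and 1.91% higher, which also stand beside the 2-fold counts that follow. Of 5 RING membrane-anchor unigenes, 0 passed 2-fold in either direction, and their median log2 ratio was 0.42. By the interval 3 lay above 1 and 1 below, beside 20.7% and 31.8% of all unigenes. Those annotated RING membrane-anchor 2 and 3 had log2 ratios from 0.42 to 0.50. R_17143 and R_19204, annotated RING membrane-anchor 1, had -0.13 and -0.28. The 16 syntaxins of plants had 0 past 2-fold and a median of 0.13. By the interval 8 lay above 1 and 2 below, beside the same 20.7% and 31.8%. The 11 vesicle-associated membrane proteins had 0 past 2-fold and a median of 0.11. By the interval 5 lay above 1 and 1 below, beside the same 20.7% and 31.8%.

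The 13 unigenes annotated general regulatory factor (14-3-3 proteins) are those numbered 2, 7, 9 and 12. Of these, 0 passed 2-fold, beside 1.91% upward and 4.21% downward of all unigenes. By the interval 3 lay above 1 and 4 below, beside 20.7% and 31.8% of all unigenes. Their median was -0.03, which is 0.04 with size factors and 0.06 without the running trend over unigene number. Of 36 calcium-dependent protein kinases past the minimum, 0 passed 2-fold upward and 1 downward, beside 1.91% and 4.21% of all unigenes. The 1 lower was R_11376, with 1.31 RPKM in SS and 2.79 in CTRL. By the interval 3 of the 36 lay above 1 and 14 below, beside the same 20.7% and 31.8%, and the median was -0.14. Of 3 SNF1-related protein kinases 2 at that level, 1 was at least 2-fold lower (R_3393, with 51 reads in SS and 112 in CTRL) and 0 higher. The shares over all unigenes are 4.21% lower and 1.91% higher. By the interval 1 of the 3 lay above 1 and 1 below, beside 20.7% and 31.8% of all unigenes. R_3393 is annotated kinase 2.5, and R_23952 and R_6689 are annotated kinase 2.1. Whether these isoforms, or the 14-3-3 proteins listed, act on PIP2;1 was not tested.

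The direction of many aquaporins depends on the unit of the SS column. That column holds reads on a common length of 849 bp for every unigene, while CTRL uses each unigene's own length, and all values above use the own length in both. Taken as deposited, the SS values change the sign of 12 of 26 log2 ratios, R_20926 and all 4 long copies of Bra019307 among them. The family's summed ratio then becomes 1.07 and its median log2 ratio 0.020. The short copies R_2114 and R_3143 pass 2-fold downward, with log2 ratios of -2.11 and -1.19, while R_15953 and R_17443 stay past 2-fold upward with 1.63 and 1.34. Over the 26 unigenes, which share both libraries, the Spearman correlation of length with log2 ratio was 0.527 as deposited and -0.146 with own lengths.

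**Figure D5:**
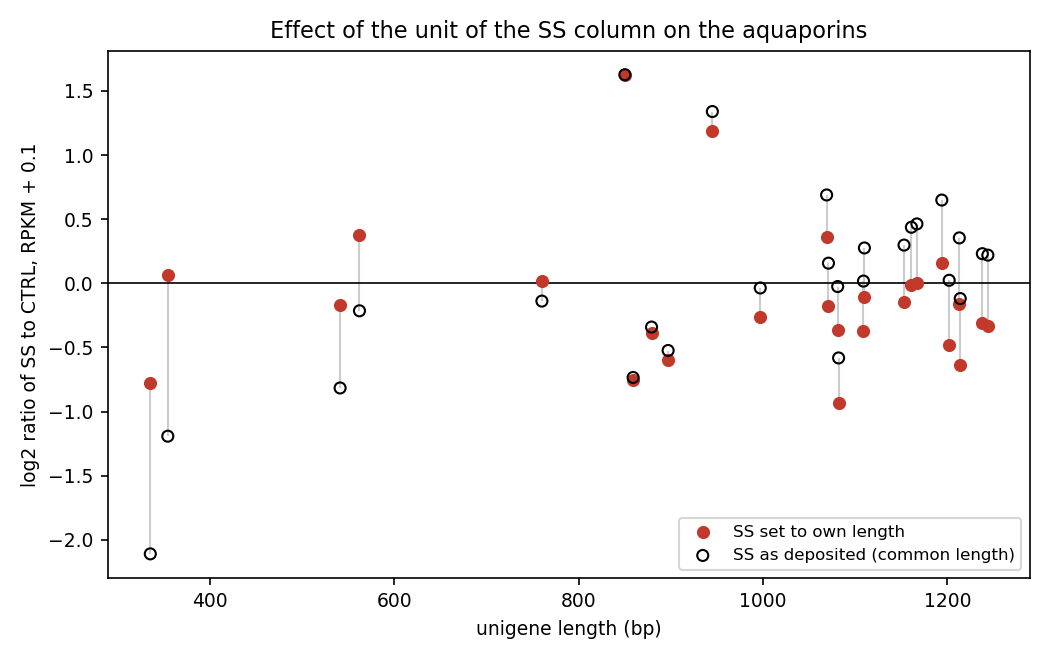
Log2 ratio of SS to CTRL against unigene length (bp) for the 26 aquaporins with at least 1 RPKM, with SS set to each unigene's own length (red) and as deposited on a common length (open), joined by a line per unigene. Short unigenes lie lower and long ones higher as deposited (R_2114 at -2.11 against -0.78 on its own length, R_20926 at 0.024 against -0.48), and both meet near 849 bp.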

How the data were processed

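One library per condition was sequenced by the authors, who assembled unigenes with Trinity, clustered them with CD-HIT-EST v 4.6.1 and mapped high-quality reads with BOWTIE2. They named DESeq for normalization and for calls of differential expression by fold change and false discovery rate. For the other tools a version is not given in the sources used here. Values deposited for CTRL are RPKM on each unigene's length. Those deposited for SS carry the same name but are a signal without length correction, since dividing by the step of 1 read gave whole reads, to 0.01 read, for 47505 of 47505 unigenes (100%). CTRL lengths were found as the whole length that gives whole reads, with lengths rising along unigene numbers and the high-quality totals that the study states. Between the lengths given to its neighbours in number, a single length fitted for 47390 of 47392 unigenes above 0 and for all 28 aquaporins. Tested on simulated data, the recovery returned the reads and lengths put in for nearly all unigenes. The simulated lengths also rose along unigene numbers, so that assumption itself was not tested. Here a count test across samples was not run, since 1 library per condition leaves no residual degrees of freedom.

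Ratios of SS to CTRL use own-length RPKM, with 0.1 RPKM added on the log2 scale, which understates low unigenes. Intervals are exact (Poisson for levels, Clopper-Pearson for ratios and shares, SciPy 1.17.1, Python 3.11.15), and those of summed ratios use Poisson variances. The members and lists were chosen with earlier results of these data known. All 28 members are named, with those past 2-fold, the highest of each subfamily and copies of 1 match in full. Groups follow the annotation, and the Arabidopsis matches the study gives for 12 members were added after seeing the data. Unannotated unigenes are left out.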

Additional observations from a re-analysis of the deposited data

How the results depend on the processing

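Each condition has 1 library, so leaving out a replicate was not possible. No paired analysis was possible because 1 library per condition gives a single pair. The count of 2 aquaporins at least 2-fold higher in SS stayed at 2 or 3 under pseudocounts of 0.01 and 1 RPKM, no minimum, a mean of at least 1 RPKM, both other scalings, removal of the running trend, the SS values as deposited, members of at least 500 bp and removal of the highest unigene. With at least 5 RPKM in either library it was 1, since R_15953 then falls out. The count at least 2-fold lower was 0 under each of these, except 2 with the SS values as deposited. The median log2 ratio of -0.17 became -0.11 with size factors, -0.11 without the running trend and 0.020 with the SS values as deposited. The summed ratio of 0.806 became 0.844 with size factors, 1.07 with the SS values as deposited and 0.851 without the highest unigene. Among single unigenes, no member past 2-fold changed sign in these settings. Size factors changed the sign of 1 log2 ratio (R_20464), the total of reads on unigenes that of 1 (R_20532), and the running trend that of 2 (R_20464 and R_9783). The interval of R_9783 without the trend was not computed, while those of R_20464 and R_20532 include 1 with scaling by high-quality reads. Members near 1 can change their interval call with the scaling. Size factors gave 7 members above 1 and 15 below, against 5 and 17. The shares over all unigenes were 26.6% and 25.9%, against 20.7% and 31.8%. Depth limits R_1927 and R_10990, whose intervals span 1. Spread between seedling pools is not covered by any interval.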

Other observations

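Outside the word search, 3 non-rapa unigenes without an annotation in the deposited table are matched to aquaporins by the study's other annotation. NR_18204, of 1142 bp and matched to delta tonoplast intrinsic protein of Arabidopsis, had 9373 reads and 91.4 RPKM in SS, against 17165 reads and 158.6 RPKM in CTRL. Its ratio was 0.577 (0.562 to 0.592), beside 0.524 for the rapa unigene R_19396 with the same match. NR_7209, of 432 bp and matched to aquaporin TIP3-1, had 214 RPKM in SS and 274 in CTRL, a ratio of 0.779 (0.757 to 0.802). This level is far above the 0.757 RPKM in SS and 0.698 in CTRL of R_10990, annotated beta-tonoplast intrinsic protein (TIP3;2). Whether the protein database match names NR_7209 rightly was not tested. Unigenes found by late embryogenesis and oleosin words summed to 410.4 RPKM in SS and 404 in CTRL. Of these 36, 0 passed 2-fold upward and 3 downward, beside 1.91% and 4.21% of all unigenes. Most have late embryogenesis family names, and the highest, R_22491 (group 2), had 87.3 RPKM in SS and 76.1 in CTRL. Oleosin 1 and oleosin 2 had 1.65 and 2.07 RPKM in SS, and 1.08 and 2.44 in CTRL. Whether these levels come from seed tissue was not tested. NR_2188, of 330 bp and matched to plasma membrane intrinsic protein 2a, had 116.8 RPKM in SS and 111 in CTRL, a ratio of 1.05 (1.001 to 1.10). Of 23 unigenes with vascular words such as xylem or phloem in their annotation, 21 reached 1 RPKM in either library. Of these, 0 passed 2-fold upward and 1 (phloem protein 2-B11, R_4648) downward, beside the same 1.91% and 4.21%. Their median log2 ratio was -0.26. These unigenes belong to no count of the aquaporins.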
